A study of Mus musculus with 10 samples.

Results

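Aminoacyl-tRNA synthetases are the enzymes that load each tRNA with its amino acid. The group described here holds 39 genes of the 51670 gene models in the table: 20 genes for cytosolic synthetases, 16 for mitochondrial synthetases, named with the suffix 2, and 3 scaffold proteins that hold some cytosolic synthetases together. The members came from a list of gene names, drawn up with earlier results of these data known, though no measured value enters it, and all 39 were found (Mars1 under its older symbol Mars). RNA was sequenced from mouse haematopoietic stem cells (HSCs), sorted from bone marrow as CD48-CD150+LSK cells, where LSK stands for lineage-negative, Sca-1-positive and Kit-positive. The mice of both groups were wild-type C57BL/6J. They had received, into the peritoneum, Tunicamycin at 2 mg per kg (5 libraries) or DMSO (5 libraries). Tunicamycin inhibits the enzyme that starts the sugar chain of N-linked glycosylation, and unfolded glycoproteins then collect in the endoplasmic reticulum. The labels give neither the age or sex of the animals, nor the time from injection to sorting, nor whether animals were pooled or split between libraries, so p-values measure the spread between these libraries, which may be technical in part.

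Each synthetase recognises an amino acid and its tRNAs, and the supply of charged tRNA sets how fast ribosomes can translate. The cytosol and the mitochondrion each need a set of their own, usually encoded by separate nuclear genes. Gars and Kars serve both and encode the glycyl and lysyl enzymes of each compartment. Eprs encodes a cytosolic protein that charges glutamate and proline tRNAs. Several cytosolic synthetases assemble with the scaffold proteins Aimp1, Aimp2 and Eef1e1 into the multisynthetase complex. Many, not all, cytosolic synthetase genes are known targets of ATF4, the transcription factor made when stress or uncharged tRNA leads to phosphorylation of eIF2 alpha.

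Values are FPKM, fragments per unit of transcript length and sequencing depth, so levels of different genes can be set side by side. Libraries are numbered as in their labels. In Tunicamycin 1 every value is a whole number, so its low values are coarse. Changes are differences of mean log2(FPKM + 1), Tunicamycin minus DMSO, with the standard error (SE) and an adjusted p from limma over 14727 genes with at least 1 FPKM in at least 5 of the 10 libraries. Calls were made at an adjusted p under 0.05. All 39 members passed this filter, and each was above 1 FPKM in all 10 libraries. The FPKM of a library summed to 436970 to 477768 after Tunicamycin and to 492963 to 499251 after DMSO. Every treated library thus had a smaller sum than every DMSO library, and the setting called a common sum below makes these sums equal. In the 10 libraries 13464 to 18378 gene models reached 1 FPKM. The gene model CT010467.1, read here as ribosomal RNA, held 2.6% of this sum in Tunicamycin 5 and 7.96% to 14.7% in the others. The median change of all tested genes was 0.18, and scaling the libraries to equal medians moved it to -0.05. Xist was at 0.0654 and 0.150 FPKM in DMSO 5 and DMSO 3, and at 28.2 to 35.6 FPKM in the other 8 libraries. The 12 HSC markers summed to 518 to 829 FPKM after Tunicamycin and to 417 to 665 FPKM after DMSO, and none was at 0 in all libraries. Of these 12, 7 were called higher and 0 lower, with a median change of 0.51, against 29.9% higher over all tested genes. The number called higher was 2 with equal medians, 3 with quantile normalization and 8 with a common sum. In bulk RNA of a sorted gate, fewer cells of a type and less RNA per cell cannot be told apart.

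Synthetase transcripts mostly stood lower after Tunicamycin. Of the 39 members 16 fell and 1 rose, while 22 did not pass the test. Over all tested genes 15.4% were called lower and 29.9% higher. For 10 of the 39, all 5 Tunicamycin libraries lay below all 5 DMSO libraries, against 11.0% of all tested genes, and for 0 of the 39 they lay above, against 19.2% of all tested genes. The median change of the members was -0.21 and that of the 20 cytosolic genes -0.17, which with equal medians was -0.39 and with a common sum -0.04. With equal medians the split of calls over all tested genes was 2951 higher and 4035 lower, with quantile normalization 3425 and 3767, and with a common sum 5396 and 1639, against 4403 and 2261 as deposited.

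**Figure D1:**
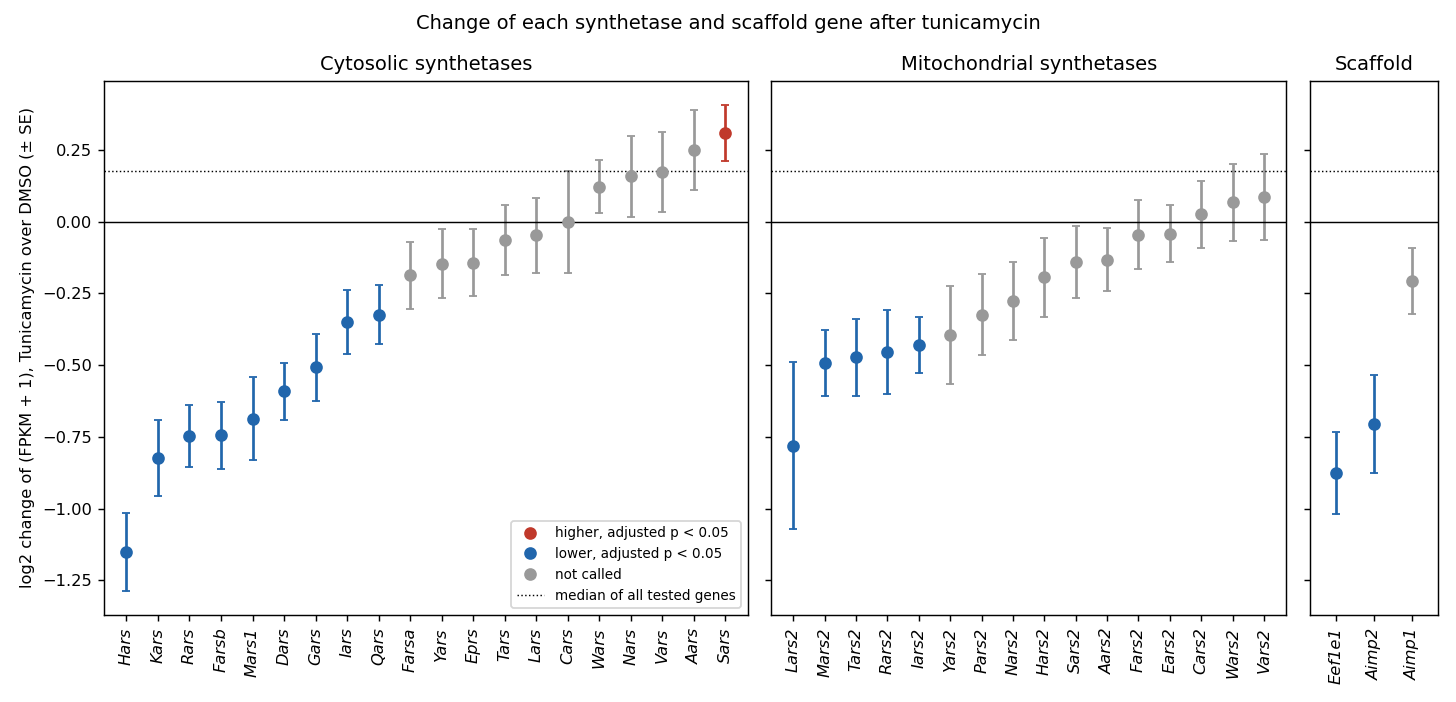
Change of each of the 39 genes, Tunicamycin minus DMSO, as the difference of mean log2(FPKM + 1) with its SE (n = 5 libraries per group), in panels for cytosolic, mitochondrial and scaffold genes. The dotted line is the median of all tested genes (0.18), and Hars lies lowest at -1.15 and Sars highest at 0.31.

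Among the cytosolic synthetases 9 of 20 fell, 1 rose and 10 did not pass the test, and the number that fell was 13 with equal medians, 10 with quantile normalization and 7 with a common sum. The 9 were Hars, Kars, Rars, Farsb, Mars1, Dars, Gars, Iars and Qars, and for the first 7 of these the groups did not overlap. Over all tested genes 15.4% were called lower and 29.9% higher, and for 11.0% all treated libraries lay below all DMSO libraries. The cytosolic mean levels ran from 19.7 to 93.9 FPKM after Tunicamycin (median 42.0 FPKM) and from 18.8 to 140.3 FPKM after DMSO (median 57.0 FPKM). The 4 with the highest DMSO level, Kars, Dars, Hars and Gars, all fell, while Nars, next in that order, did not pass the test. As the DMSO level is one side of the change, this order itself favours a fall. By Tunicamycin level the first 4 were Nars, Dars, Kars and Vars, of which Dars and Kars fell and Nars and Vars did not pass the test. The sum over the 20 genes was 948 ± 67.4 FPKM after Tunicamycin and 1231 ± 133 FPKM after DMSO (SD, n = 5 each).

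Hars, which encodes the cytosolic histidyl-tRNA synthetase (chromosome 18, 36766528 to 36783205, minus strand, GRCm38), changed most. Its levels were 69, 48.1, 50.1, 47.9 and 47.5 FPKM in the 5 Tunicamycin libraries and 129, 101, 110.1, 105 and 143 FPKM in the 5 DMSO libraries. Tunicamycin 1 stood above the other treated libraries, which lay close together, and every treated library lay below every DMSO library. The change was -1.15 (SE 0.14, limma adjusted p 4.34e-05), and the ratio of the mean levels was 0.447. Hars lies head to head with Hars2, the mitochondrial histidyl enzyme, and their exons overlap over 195 bases on opposite strands (8.0% of the Hars exons), where the sources do not say whether counting used strand. Hars2 had 12.8 ± 2.39 FPKM after Tunicamycin and 14.7 ± 1.69 FPKM after DMSO (SD, n = 5 each), and its change of -0.19 did not pass the test (limma adjusted p 0.269).

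Kars, for the lysyl enzyme of both compartments (chromosome 8, 111993443 to 112011323, minus strand), had 68, 78.3, 81.7, 74.2 and 89.0 FPKM after Tunicamycin and 173, 118, 134, 118 and 159 FPKM after DMSO. Every treated library lay below every DMSO library, and the change was -0.82 (SE 0.13, limma adjusted p 0.000331). Rars, the arginyl enzyme (chromosome 11), had 40, 42.3, 39.5, 38.5 and 43.5 FPKM after Tunicamycin and 82.2, 61.5, 69.9, 58.9 and 75.0 FPKM after DMSO. Its treated libraries were close together and all below DMSO, with a change of -0.75 (SE 0.11, limma adjusted p 0.000184).

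Farsb is the beta subunit of the phenylalanyl enzyme, and its partner, the catalytic alpha subunit, comes from Farsa. Farsb (chromosome 1) had 53, 49.9, 43.8, 47.9 and 47.4 FPKM after Tunicamycin and 100.4, 71.1, 77.2, 72.2 and 91.0 FPKM after DMSO, with no overlap of the groups. Farsb changed by -0.74 (SE 0.12, limma adjusted p 0.000288). Farsa had 46.7 ± 7.73 FPKM after Tunicamycin and 52.9 ± 3.23 FPKM after DMSO (SD, n = 5 each), and its change of -0.19 did not pass the test (limma adjusted p 0.212). The difference between the changes of the partners was not tested.

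Mars1, the methionyl enzyme that also charges the initiator tRNA (chromosome 10), had 47, 35.7, 33.1, 30.3 and 42.0 FPKM after Tunicamycin and 67.7, 52.5, 57.7, 52.3 and 75.1 FPKM after DMSO. The groups did not overlap, and the change was -0.69 (SE 0.14, limma adjusted p 0.00208). The last exons of Mars1 share 68 bases (2.0% of its exon bases) on the opposite strand with Ddit3, the gene of the stress transcription factor CHOP, which had a mean of 97.3 FPKM after Tunicamycin and 17.3 FPKM after DMSO. So Mars1 and its neighbour differed in opposite directions. Dars, the aspartyl enzyme (chromosome 1), had 92, 74.4, 83.3, 88.0 and 81.4 FPKM after Tunicamycin and 143, 118, 128, 121 and 123 FPKM after DMSO. It changed by -0.59 (SE 0.10, limma adjusted p 0.000458), with all treated libraries below all DMSO libraries. Gars, the glycyl enzyme of both compartments (chromosome 6), had 68, 61.6, 57.7, 52.2 and 66.2 FPKM after Tunicamycin and 102, 79.4, 84.5, 75.6 and 96.7 FPKM after DMSO. Its groups were apart as well, and the change was -0.51 (SE 0.12, limma adjusted p 0.00355).

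Smaller changes, with groups that overlapped, were called for Iars, Qars and Sars. Iars, the isoleucyl enzyme (chromosome 13), had 32, 32.8, 28.5, 28.9 and 35.9 FPKM after Tunicamycin and 44.1, 36.1, 40.1, 35.7 and 47.6 FPKM after DMSO. The highest treated library lay just above the lowest DMSO library, and the change was -0.35 (SE 0.11, limma adjusted p 0.0211). This call ended with a common sum (limma adjusted p 0.175) and without Tunicamycin 3, Tunicamycin 4, DMSO 1 or DMSO 5, where the change was -0.29 to -0.32 (limma adjusted p 0.0507 to 0.0619). Qars, the glutaminyl enzyme (chromosome 9), had 29, 32.0, 36.9, 30.7 and 30.0 FPKM after Tunicamycin and 41.6, 36.1, 38.1, 38.5 and 45.4 FPKM after DMSO. Here Tunicamycin 3 alone reached the DMSO range, and the change was -0.32 (SE 0.10, limma adjusted p 0.0204). It was not called with a common sum (limma adjusted p 0.172) or without DMSO 5 (-0.28, limma adjusted p 0.0603). Without the filter on low values, or without both DMSO libraries with little Xist, neither Iars nor Qars was called. In all, Iars lost its call in 7 of the other settings and Qars in 5.

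Sars, the seryl enzyme (chromosome 3, 108424865 to 108445209, minus strand), was the 1 member that rose. It had 43, 41.3, 37.5, 32.9 and 40.8 FPKM after Tunicamycin and 33.0, 31.0, 31.0, 29.3 and 32.3 FPKM after DMSO. In 4 of the 5 treated libraries Sars lay above every DMSO library, and in Tunicamycin 4 it did not. The ratio of the means was 1.25 and the change 0.31 (SE 0.10, limma adjusted p 0.0217). The call ended with equal medians (0.08, limma adjusted p 0.588), with quantile normalization (0.23, limma adjusted p 0.0651) and without Tunicamycin 2 (0.29, limma adjusted p 0.0581) or DMSO 4 (0.28, limma adjusted p 0.0557). It also ended without the filter on low values and without both DMSO libraries with little Xist.

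The other 9 cytosolic members apart from Farsa changed by -0.15 to 0.25 and did not pass the test. Aars, the alanyl enzyme, had 29, 23.2, 20.1, 17.3 and 24.1 FPKM after Tunicamycin and 20.1, 16.7, 18.8, 16.2 and 22.3 FPKM after DMSO. Its groups overlapped widely around a change of 0.25 (limma adjusted p 0.166). Vars, Nars and Wars, for valine, asparagine and tryptophan, had changes of 0.17, 0.16 and 0.12, which with equal medians were -0.06, -0.07 and -0.11. Cars (cysteine), Lars (leucine), Tars (threonine), Eprs and Yars (tyrosine) had changes of -0.00, -0.05, -0.06, -0.14 and -0.15. The limma adjusted p of these 8 genes ranged from 0.311 to 0.994.

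**Figure D2:**
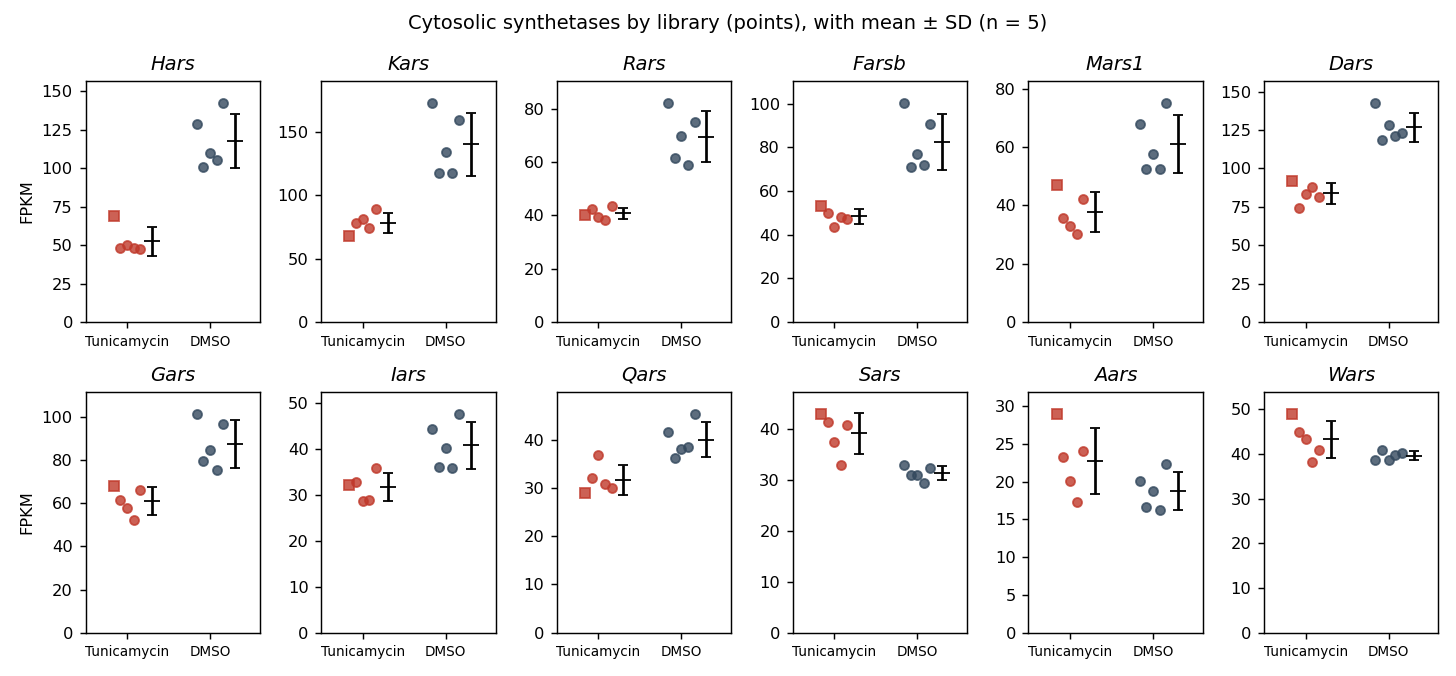
FPKM of 12 cytosolic synthetase genes in each library, Tunicamycin left and DMSO right, with the mean and SD (n = 5 per group). The square is Tunicamycin 1, which holds whole numbers only, and from Hars to Gars every treated library lies below every DMSO library.

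The cytosolic members were then set out by their place in the multisynthetase complex. The scaffold proteins of this complex are themselves among the members, and the members were chosen with earlier results of these data known. Of the 8 synthetases of the complex (Dars, Eprs, Iars, Kars, Lars, Mars1, Qars and Rars) 6 fell and 0 rose, and all 8 changes were negative, with a median of -0.47; with a common sum 4 of the 8 fell and Lars was at 0.08. Of the 12 synthetases outside the complex 3 fell (Hars, Farsb and Gars) and 1 rose (Sars), with a median of -0.03. These counts stand beside 15.4% lower and 29.9% higher among all tested genes, and the difference between both sets was not tested. Eprs and Lars were the complex members that did not pass the test. By catalytic fold, which divides the enzymes into class I and class II, 4 of 9 class I and 5 of 10 class II cytosolic genes fell, with Eprs, which holds an enzyme of each class, left out.

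Of the 3 transcripts for scaffold proteins of the complex, 2 were called lower, against 15.4% of all tested genes. Eef1e1, also known as AIMP3 (chromosome 13), had 17, 18.1, 14.2, 15.4 and 20.1 FPKM after Tunicamycin and 42.5, 28.2, 29.1, 25.9 and 35.5 FPKM after DMSO. All treated libraries lay below all DMSO libraries, and the change was -0.87 (SE 0.14, limma adjusted p 0.000392), after Hars the next in size among the 39. Aimp2, the scaffold on which the complex assembles (chromosome 5), had 22, 26.4, 21.2, 22.7 and 41.4 FPKM after Tunicamycin and 50.8, 39.7, 39.3, 38.0 and 47.9 FPKM after DMSO. Tunicamycin 5 reached the DMSO range and the other 4 did not, with a change of -0.70 (SE 0.17, limma adjusted p 0.00508). Aimp2 shares 487 exon bases (29.4% of its exons) on the opposite strand with Eif2ak1, the haem-regulated eIF2 alpha kinase, which had a mean of 16.6 FPKM after Tunicamycin and 17.1 FPKM after DMSO. Aimp1, whose cleaved form acts as a cytokine, had 9, 12.4, 12.1, 10.3 and 11.4 FPKM after Tunicamycin and 14.4, 12.6, 10.9, 12.3 and 14.0 FPKM after DMSO. Its groups overlapped, and the change of -0.21 did not pass the test (SE 0.11, limma adjusted p 0.163). Counting synthetases and scaffold together, 8 of the 11 complex genes fell and 3 did not pass the test, and with a common sum 6 fell.

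Mitochondrial synthetases charge the tRNAs encoded by mitochondrial DNA, for translation of respiratory chain subunits. Of the 16 genes 5 fell (Lars2, Mars2, Tars2, Rars2 and Iars2), 0 rose and 11 did not pass the test. Over all tested genes 15.4% were called lower and 29.9% higher. For 2 of the 16 all treated libraries lay below all DMSO libraries, near the 11.0% of all tested genes. The median change was -0.24, or -0.46 with equal medians and -0.13 with a common sum. The number that fell moved with the processing: it was 13 with equal medians, 11 with quantile normalization, 2 with a common sum and 3 without DMSO 1. Apart from Lars2 their mean levels were low, from 2.24 to 26.4 FPKM after Tunicamycin (median 9.14 FPKM) and from 2.02 to 36.5 FPKM after DMSO (median 11.5 FPKM). The sum over the 16 genes was 262 ± 22.0 FPKM after Tunicamycin and 377 ± 95.0 FPKM after DMSO (SD, n = 5 each). The 13 mRNAs encoded in the mitochondrion were listed as a measure of RNA quality. They summed to 10512 to 20114 FPKM after Tunicamycin and to 25490 to 40084 FPKM after DMSO. That was 2.41% to 4.45% of the FPKM sum after Tunicamycin and 5.11% to 8.08% after DMSO. Of these mRNAs 10 were called lower, or 5 with quantile normalization, and a link to the synthetases was not tested.

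Mars2, for methionine (chromosome 1), had 2, 2.32, 2.45, 2.77 and 2.76 FPKM after Tunicamycin and 4.21, 3.46, 3.95, 3.67 and 3.99 FPKM after DMSO. Its groups were apart at a low level, and the change was -0.49 (SE 0.11, limma adjusted p 0.00402). Iars2, for isoleucine (chromosome 1), had 15, 15.9, 14.0, 14.0 and 13.9 FPKM after Tunicamycin and 19.6, 21.1, 17.8, 18.6 and 22.8 FPKM after DMSO. The groups did not overlap, and the change was -0.43 (SE 0.10, limma adjusted p 0.00342). Iars2 shares 22.9% of its exon bases on the opposite strand with Rab3gap2, which had a mean of 9.65 FPKM after Tunicamycin and 9.26 FPKM after DMSO.

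Tars2, for threonine (chromosome 3), had 20, 23.9, 17.8, 19.1 and 30.0 FPKM after Tunicamycin and 31.3, 30.6, 30.4, 28.2 and 32.8 FPKM after DMSO. Tunicamycin 5 alone reached the DMSO range, and the change was -0.47 (SE 0.13, limma adjusted p 0.0115), or -0.36 with a common sum (limma adjusted p 0.0778). Rars2, for arginine (chromosome 4), had 24, 26.0, 21.5, 25.4 and 35.3 FPKM after Tunicamycin and 47.8, 32.4, 35.2, 31.2 and 36.2 FPKM after DMSO. Again Tunicamycin 5 was the 1 treated library within the DMSO range, and the change was -0.45 (SE 0.15, limma adjusted p 0.0231). That call ended without Tunicamycin 3 (limma adjusted p 0.0631), without DMSO 1 (limma adjusted p 0.0580) and with a common sum (limma adjusted p 0.115). Without both DMSO libraries with little Xist neither Tars2 nor Rars2 was called, and without the filter on low values Rars2 was not called.

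Lars2, the leucyl enzyme of mitochondria (chromosome 9, 123366927 to 123462666, plus strand), stood far above the other mitochondrial members. It had 152, 66.8, 129.7, 133 and 66.5 FPKM after Tunicamycin and 347, 148, 155, 157 and 142 FPKM after DMSO. DMSO 1 stood above all other libraries, and Tunicamycin 1 lay within the range of the other DMSO libraries. The change was -0.78 (SE 0.29, limma adjusted p 0.0441), and without DMSO 1 it was -0.54 (limma adjusted p 0.101). The call was also lost without Tunicamycin 2 (-0.63, limma adjusted p 0.114), Tunicamycin 5 (-0.62, limma adjusted p 0.101), DMSO 3 (-0.83, limma adjusted p 0.0527) or DMSO 4 (-0.82, limma adjusted p 0.0560), in all in 12 of the 22 other settings.

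Lars2 moved between libraries together with Gm15564, an antisense gene model elsewhere in the genome with which a Lars2 transcript of 3894 bases shares a stretch of 52 bases, at positions 3278 to 3329. This comparison was chosen after the values had been seen: of 8 gene models that share such runs with Lars2, 5 share more than Gm15564, and the Cd38 level went the opposite way, with a mean of 30.1 FPKM after Tunicamycin and 6.88 FPKM after DMSO. Gm15564 had 128, 58.8, 122, 109 and 50.5 FPKM after Tunicamycin and 336, 131, 142, 127 and 89.5 FPKM after DMSO. The ratio of Lars2 to Gm15564 stayed between 1.03 and 1.58 over the 10 libraries, and Gm15564 itself changed by -0.75 (SE 0.34, limma adjusted p 0.0910). CT010467.1, the model read as ribosomal RNA, had 66493, 35142, 55667, 58900 and 11339 FPKM after Tunicamycin. After DMSO it had 51122, 64272, 54502, 59739 and 49864 FPKM. The parts of shared reads and of ribosomal RNA in the Lars2 value were not tested. Without Lars2, 4 of 15 mitochondrial genes fell and the median change was -0.19.

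**Figure D3:**
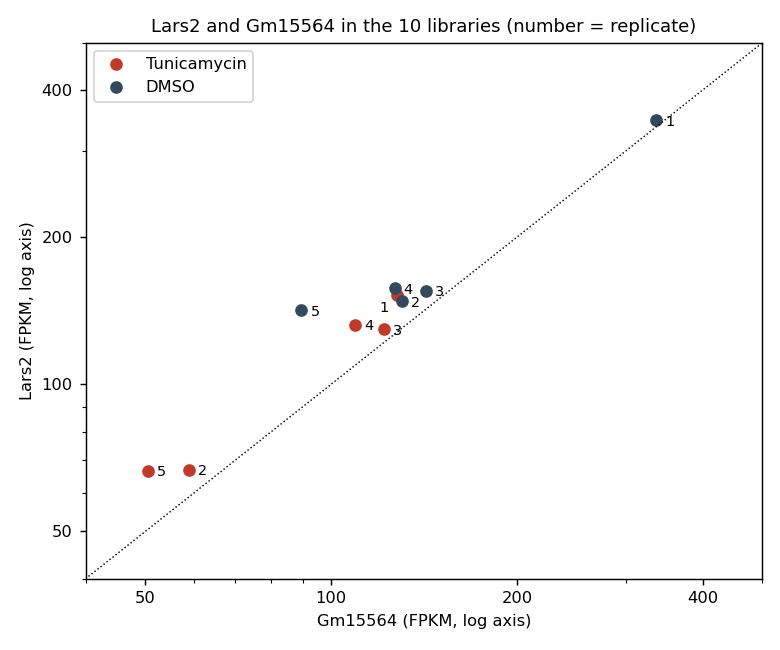
Lars2 against Gm15564, both in FPKM on log axes, in each library, numbered as in the labels, with Tunicamycin in red and DMSO in dark blue. On the dotted line both are equal; the points lie above it at ratios of 1.03 to 1.58, and DMSO 1 lies far from the rest at 347 FPKM of Lars2.

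The other 11 mitochondrial members changed by -0.39 to 0.09 and did not pass the test. Yars2 (tyrosine) had 9.14 ± 3.08 FPKM after Tunicamycin and 11.9 ± 0.983 FPKM after DMSO (SD, n = 5 each), a change of -0.39 (limma adjusted p 0.0762). Pars2 (proline) had 5.29 ± 1.34 FPKM after Tunicamycin and 6.77 ± 0.593 FPKM after DMSO, a change of -0.32 (limma adjusted p 0.0767). In both genes Tunicamycin 5 was the highest treated library. Nars2, Sars2, Aars2, Fars2 and Ears2 had changes of -0.28, -0.14, -0.13, -0.05 and -0.04, and Cars2, Wars2 and Vars2 of 0.03, 0.07 and 0.09. With equal medians the values of the last 3 were -0.20, -0.16 and -0.14.

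**Figure D4:**
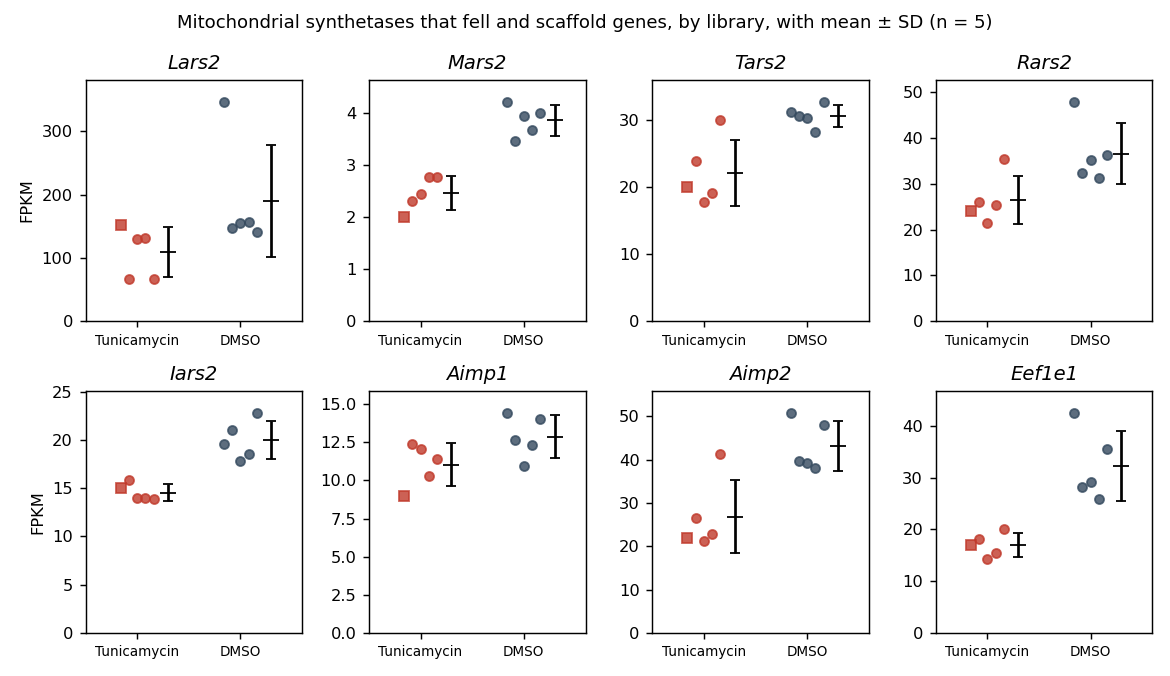
FPKM of mitochondrial synthetase and scaffold genes in each library, Tunicamycin left and DMSO right, with the mean and SD (n = 5 per group). The square is Tunicamycin 1, which holds whole numbers only, and the groups do not overlap for Mars2, Iars2 and Eef1e1.

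The cytosolic set was compared with the mitochondrial set within each library. The mean log2(FPKM + 1) of the 20 cytosolic genes was 5.45 ± 0.12 after Tunicamycin and 5.73 ± 0.14 after DMSO, and that of the 16 mitochondrial genes was 3.41 ± 0.13 after Tunicamycin and 3.66 ± 0.07 after DMSO (SD, n = 5 each). The cytosolic minus the mitochondrial mean was 2.27, 2.06, 2.03, 1.92 and 1.93 in the Tunicamycin libraries and 2.13, 1.98, 2.06, 1.99 and 2.17 in the DMSO libraries. The DMSO values lay within the range of the Tunicamycin values, and the means differed by -0.03, or by -0.06 without Lars2. On this scale the cytosolic mean stood lower by a difference of -0.28 and the mitochondrial mean by -0.25. The scale understates changes of low genes, and the mitochondrial levels were the lower ones. With 0.1 in place of 1 added to the FPKM, the median change was -0.26 for mitochondrial and -0.17 for cytosolic genes, against -0.24 and -0.17. As members of a set are not replicates, no test was made on the difference between the sets.

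For 13 amino acids a cytosolic and a mitochondrial member whose names differ only in the suffix were paired. The difference of their log2(FPKM + 1) was taken in each library. Fars2, Ears2 and Pars2 have no such partner and were left out, as the cytosolic enzymes come from Farsa with Farsb and from Eprs. Farsb changed by -0.74, Farsa by -0.19 and Fars2 by -0.05, while Eprs changed by -0.14, Ears2 by -0.04 and Pars2 by -0.32. For 2 of the 13 the values of all Tunicamycin libraries lay above those of all DMSO libraries, and for the other 11 the groups overlapped. The mean difference was higher after Tunicamycin in 9 pairs and lower in 4. Of all tested genes, taken singly, 19.2% lay wholly above DMSO, and no such share was taken for pairs of other genes. Sars over Sars2 was 1.82 ± 0.14 after Tunicamycin and 1.38 ± 0.07 after DMSO, and Tars over Tars2 was 0.13 ± 0.15 after Tunicamycin and -0.28 ± 0.10 after DMSO (SD of log2 differences, n = 5 each). In the serine pair the cytosolic gene rose, and in the threonine pair the mitochondrial gene fell. Hars over Hars2 went the other way, at 2.81, 1.69, 1.92, 1.79 and 1.57 after Tunicamycin and 3.05, 2.87, 2.72, 2.91 and 3.01 after DMSO. Tunicamycin 1 alone reached the DMSO range of this pair, where Hars2 is given as the whole number 9.

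**Figure D5:**
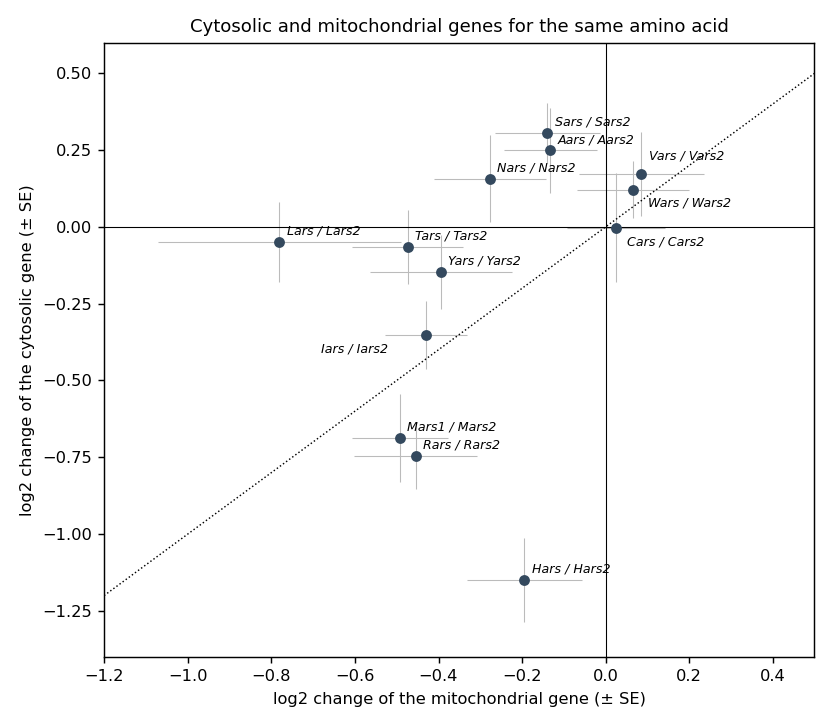
Change of the cytosolic gene (vertical) against that of the mitochondrial gene for the same amino acid (horizontal), each as Tunicamycin minus DMSO in mean log2(FPKM + 1) with its SE (n = 5 per group), for 13 amino acids. On the dotted line both changes are equal, and Hars / Hars2 lies farthest below it.

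The genes that act with the synthetases were described by lists. The counts of each list stand beside 15.4% called lower and 29.9% called higher over all tested genes. Among genes of charging and editing other than the members, Aarsd1, an editing protein that removes serine from alanine tRNA, changed by -1.01 (limma adjusted p 0.000683), and the threonyl paralog Tarsl2 by -0.56 (limma adjusted p 0.00105). Of 24 tested genes of tRNA maturation and export 9 fell and 2 rose, with a median of -0.29, and 20 fell with equal medians and 4 with a common sum. Pop1, a protein of RNase P, changed by -1.02 (limma adjusted p 5.82e-05), Ssb, the La protein that binds new polymerase III transcripts, by -0.74 (limma adjusted p 0.000149), and Tsen34, a subunit of the tRNA splicing endonuclease, by 0.85 (limma adjusted p 0.00425). Among 21 genes of RNA polymerase III, which transcribes tRNA genes, 3 rose and 2 fell, with a median of -0.11; with equal medians 1 rose and 13 fell, and with a common sum 4 rose and 0 fell. Maf1, its repressor, had 141 ± 22.2 FPKM after Tunicamycin and 82.7 ± 9.88 FPKM after DMSO (SD, n = 5 each), a change of 0.76 (limma adjusted p 0.000545).

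The 6 listed genes of elongation factors, which take charged tRNA to the ribosome, and of their exchange factors all fell (5 of 6 with quantile normalization), with a median change of -0.72. Eef1g, a subunit of the exchange factor, had 256 ± 29.4 FPKM after Tunicamycin and 594 ± 84.7 FPKM after DMSO (SD, n = 5 each), a change of -1.21 (limma adjusted p 2.58e-05). Eef1a1, the factor that carries the tRNA itself, changed by -0.90 (limma adjusted p 0.0141), or by -0.35 with quantile normalization, where its call ended (limma adjusted p 0.170), and Tufm, its mitochondrial counterpart, by -0.74 (limma adjusted p 6.07e-05). Factors of both compartments had the direction of the synthetases that fell.

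In the pathway that answers uncharged tRNA, 2 of 4 genes rose (Atf4 and Impact) and 0 fell, against 29.9% higher and 15.4% lower among all tested genes. Atf4 itself had 135 ± 19.6 FPKM after Tunicamycin and 80.2 ± 10.8 FPKM after DMSO (SD, n = 5 each) and rose by 0.74 (limma adjusted p 0.000758). Impact, an inhibitor of the GCN2 kinase pathway, rose by 0.82 (limma adjusted p 6.92e-05), while Eif2ak4, which encodes that kinase, and its activator Gcn1 had changes of 0.17 and -0.12 and did not pass the test. With equal medians Gcn1 was called lower (-0.35, limma adjusted p 0.00345), as it was with quantile normalization (-0.33, limma adjusted p 0.00427). Of 27 tested ATF4 targets other than synthetases 14 rose and 5 fell, with a median of 0.43, and 3 fell with a common sum. Trib3, a pseudokinase that feeds back on ATF4, had 58.4 ± 10.8 FPKM after Tunicamycin and 4.74 ± 0.856 FPKM after DMSO, a change of 3.37 (limma adjusted p 7.14e-08). Atf3 and Ddit4 rose by 2.47 and 2.41 (limma adjusted p 0.000626 and 2.79e-05). The 5 that fell were Asns, Phgdh, Psat1, Aldh18a1 and Shmt2. Asns, the asparagine synthetase, had 38.1 ± 12.2 FPKM after Tunicamycin and 111 ± 34.3 FPKM after DMSO, a change of -1.52 (limma adjusted p 0.000209).

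The promoters of the members were then read for the letters of the element that ATF4 and its C/EBP partners bind, TGATGNAA. RefSeq (GRCm38.p6) gave a window from 250 bases before to 50 bases after the start for 30 of the 39 genes. The 9 without a window, Cars, Hars, Lars, Nars, Rars, Vars, Wars, Hars2 and Pars2, were not searched. The letters were found on either strand in windows of 5 of 13 cytosolic genes (Aars, Gars, Iars, Tars and Yars), of 0 of 14 mitochondrial genes and of 0 of 3 scaffold genes, against 4.51% of all 27025 genes with a window. Of these 5 genes Gars and Iars fell, and Aars, Tars and Yars did not pass the test. These windows are shown since they hold the element at the synthetase genes; that of Mars1, which fell and holds no match, is shown beside them. Each is written 5′ to 3′ along the gene's strand, with the match in capitals, as its reverse complement where the element lies on the other strand.
Aars, chr8:111033592-111033891, plus strand: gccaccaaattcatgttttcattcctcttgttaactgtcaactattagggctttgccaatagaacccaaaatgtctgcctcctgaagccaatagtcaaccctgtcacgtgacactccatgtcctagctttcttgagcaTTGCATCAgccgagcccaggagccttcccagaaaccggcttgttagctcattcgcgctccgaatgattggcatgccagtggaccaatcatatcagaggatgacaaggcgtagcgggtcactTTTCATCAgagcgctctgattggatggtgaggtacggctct
Gars, chr6:55037751-55038050, plus strand: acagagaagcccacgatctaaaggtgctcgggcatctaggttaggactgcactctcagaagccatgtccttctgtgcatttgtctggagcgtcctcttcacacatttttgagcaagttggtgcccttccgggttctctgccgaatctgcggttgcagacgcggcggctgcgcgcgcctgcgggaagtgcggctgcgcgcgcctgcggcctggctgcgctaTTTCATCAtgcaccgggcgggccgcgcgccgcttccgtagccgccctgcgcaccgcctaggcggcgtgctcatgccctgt
Iars, chr13:49681880-49682179, plus strand: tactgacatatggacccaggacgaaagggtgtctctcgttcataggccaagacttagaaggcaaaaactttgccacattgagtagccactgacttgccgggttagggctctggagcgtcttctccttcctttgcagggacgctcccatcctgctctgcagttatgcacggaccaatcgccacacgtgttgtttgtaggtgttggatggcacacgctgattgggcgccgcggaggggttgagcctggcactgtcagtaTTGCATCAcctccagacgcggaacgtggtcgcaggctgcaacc
Tars, chr15:11399609-11399908, minus strand: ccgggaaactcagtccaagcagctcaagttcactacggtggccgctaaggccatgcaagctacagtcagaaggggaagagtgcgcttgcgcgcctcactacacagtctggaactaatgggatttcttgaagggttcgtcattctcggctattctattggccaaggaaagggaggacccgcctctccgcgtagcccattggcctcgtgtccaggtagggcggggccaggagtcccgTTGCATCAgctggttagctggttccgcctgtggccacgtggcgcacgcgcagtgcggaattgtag
Yars, chr4:129189653-129189952, plus strand: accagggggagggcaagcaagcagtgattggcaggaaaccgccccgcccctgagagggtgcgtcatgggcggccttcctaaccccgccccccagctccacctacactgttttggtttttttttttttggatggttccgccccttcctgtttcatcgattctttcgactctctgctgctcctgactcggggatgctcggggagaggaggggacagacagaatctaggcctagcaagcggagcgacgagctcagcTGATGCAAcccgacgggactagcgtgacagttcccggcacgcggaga
Mars1, chr10:127311737-127312036, minus strand: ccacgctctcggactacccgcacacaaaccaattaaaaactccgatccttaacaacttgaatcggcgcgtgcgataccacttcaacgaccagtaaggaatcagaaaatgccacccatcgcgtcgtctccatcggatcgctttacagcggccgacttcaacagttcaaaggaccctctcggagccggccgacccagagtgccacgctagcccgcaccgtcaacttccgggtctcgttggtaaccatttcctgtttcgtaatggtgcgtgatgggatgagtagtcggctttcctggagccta

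Counted from the start site, the match began at -112 and +10 in Aars, -30 in Gars, +8 in Iars, -15 in Tars and +4 in Yars. The letters CACGTG, the E-box read by MYC and related factors, were in windows of 4 of 13 cytosolic genes (Aars, Farsb, Iars and Tars), of 1 of 14 mitochondrial genes (Ears2) and of 0 of 3 scaffold genes, against 8.09% of all genes with a window. In Aars, Iars and Tars it lies among the lower-case letters above. For Dars, Kars, Sars and Sars2, all without a match, the last 30 bases of the window were not found in the gene's GENCODE transcripts. A match is a run of letters, not a shown binding site, and a window without one says nothing of the factor.

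Markers of other cells and of the cell cycle differed between the groups as well. The 12 proliferation genes summed to 463 to 601 FPKM after Tunicamycin and to 1154 to 1691 FPKM after DMSO, and all 12 fell. The 10 erythroid progenitor genes summed to 1095 to 2142 FPKM after Tunicamycin and to 4326 to 8307 FPKM after DMSO, and all 10 fell. The 12 macrophage genes summed to 2003 to 4963 FPKM after Tunicamycin and to 726 to 1348 FPKM after DMSO, and all 12 rose (10 with equal medians). The 6 red cell genes summed to 4951 to 11330 FPKM after Tunicamycin and to 195 to 465 FPKM after DMSO, and all 6 rose. Endothelial, stromal and megakaryocyte genes were called higher in 7 of 8, 5 of 6 and 4 of 5 tested cases (stromal genes in 3 of 6 with equal medians or quantile normalization), lymphoid genes in 1 of 3 and neutrophil genes in 0 of 7. Over all tested genes 29.9% were called higher and 15.4% lower. No gene of these lists was at 0 in all libraries. The part of such cells, and of proliferation, in the synthetase values was not tested.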

How the data were processed

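The authors deposited FPKM values per gene model for 10 libraries. Per the labels' protocols, amplified cDNA (Geo-seq) was made into libraries with a Tn5 kit. The submitters' processing notes name Bowtie 0.12.9, Cufflinks 2.1.1, HTSeq, DESeq2 and the build mm10. Their roles, the annotation and the strand setting were not stated there. In Tunicamycin 1 the deposited values are whole numbers only and were read as a score on the FPKM scale. The table holds no counts, so the depth behind a value was not used.

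Identifiers were matched to symbols for 51389 of 51670 models; gene positions are from GENCODE (GRCm38). Genes with at least 1 FPKM in at least 5 libraries were fitted with limma 3.58.1 in R 4.3.3 on log2(FPKM + 1), with a pseudocount of 1, a mean-variance trend and a single term for the group, and p-values were adjusted by Benjamini-Hochberg over 14727 genes. This scale understates changes of low genes. Tables and figures used Python 3.11.15, pandas 2.3.3, numpy 2.4.6 and matplotlib 3.10.9. Called members, and up to 3 members of a class where fewer were called, are given by library, and up to 3 called genes per list are named, those with the largest change. Members, lists and tests were chosen with earlier results of these data known. Other scalings, filters, pseudocounts, sets of libraries and a fit with a replicate term were tried. Columns were matched to samples by title. A gene of the list of other charging and editing genes is not reported here, nor are that list's counts.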

Additional observations from a re-analysis of the deposited data

Results flagged for a closer look

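In 8 of 86 groups of 5 libraries that were examined, 1 library lay apart from the other 4, with a gap over 0.71 of the group's range. Chance alone sets a library apart in about 1 in 20 such groups. Hars was at 69 FPKM in Tunicamycin 1, against at most 50.1 FPKM in the other treated libraries. Vars was at 56.6 FPKM in Tunicamycin 5, against at least 80.3 FPKM in the others. Aars2 was at 6.28 FPKM in Tunicamycin 3, against at most 5.18 FPKM in the others. Vars2 was at 3.29 FPKM in Tunicamycin 5, against at most 2.20 FPKM in the others. Aimp2 was at 41.4 FPKM in Tunicamycin 5, against at most 26.4 FPKM in the others. Lars2 was at 347 FPKM in DMSO 1, against at most 157 FPKM in the other DMSO libraries, and the sum of the mitochondrial members, 546 FPKM in that library against at most 339 FPKM in the others, includes it. Yars2 was at 10.2 FPKM in DMSO 4, against at least 12.2 FPKM in the other DMSO libraries.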

How the results depend on the processing

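Of the 17 called members, 11 kept their call in every one of 22 other settings in which they were tested (Hars, Kars, Rars, Farsb, Mars1, Dars, Gars, Mars2, Iars2, Aimp2 and Eef1e1), and no called member turned its sign. Sars lost its call in 6 settings, Iars in 7, Qars in 5, Lars2 in 12, Rars2 in 5 and Tars2 in 2, and 13 of the 22 members not called were called in some setting. Sars, Iars, Qars, Lars2, Rars2 and Tars2 all lost it without both DMSO libraries that hold little Xist. In that setting 7 cytosolic members were called lower. With a minimum of 5 FPKM, 2859 of 8619 tested genes were called higher, against 4403 of 14727 with the reported filter, so fewer genes were tested as well. Genes called lower numbered 4035 with equal medians and 3767 with quantile normalization. No cytosolic member (0) was called higher without the filter, with equal medians, with quantile normalization or without both DMSO libraries that hold little Xist. Mitochondrial members called lower numbered 3 without the filter, 13 with equal medians, 11 with quantile normalization, 2 with a common sum and 2 without both DMSO libraries with little Xist. The cytosolic median change was -0.39 with equal medians and -0.042 with a common sum. The causes of these shifts were not tested.

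Leaving out each library in turn gave 3294 to 5841 genes higher and 1891 to 2510 lower, 0 to 1 cytosolic members higher (0 without Tunicamycin 2 or DMSO 4), 7 to 10 cytosolic and 3 to 7 mitochondrial members lower (3 without DMSO 1), and 2 scaffold members lower throughout. The same calls numbered 4553, 2248, 1, 9, 6 and 2 with the replicate block. Same-numbered libraries correlated at 0.248, 0.233, 0.0850, 0.0741 and 0.0207 in their deviations from the group means, and only numbers 1 to 3 matched best with their own number, so the numbers were not taken to pair the libraries.

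Signs turned for members near 0. Cars was at 0.12 with a common sum, at 0.13 without the DMSO libraries with little Xist and between -0.12 and 0.11 when a library was left out. Lars was at 0.078 with a common sum, at 0.025 without the libraries with little Xist and between -0.12 and 0.0083 with a library left out. Tars was at 0.060 with a common sum and between -0.15 and 0.0093 with a library left out. With equal medians Nars was at -0.070, Vars at -0.055 and Wars at -0.11. Cars2 was at -0.20 with equal medians, -0.14 with quantile normalization, -0.025 with array weights, -0.027 without the libraries with little Xist and -0.063 to 0.087 with a library left out. Ears2 was at 0.068 and Fars2 at 0.076 with a common sum, and Fars2 between -0.11 and 0.012 with a library left out. Vars2 was at -0.14 with equal medians, -0.17 with quantile normalization, -0.051 with array weights and -0.021 to 0.14 with a library left out. Wars2 was at -0.16 with equal medians and -0.18 with quantile normalization. The table gives no depth, so the counting error of low members is unknown.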
